A study of Mus musculus with 16 samples.

Results

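The genes described here build the mitotic spindle, move chromosomes along it and divide the cell, and were measured in spleen CD8 T cells of leukaemia-bearing mice. The list holds 40 genes chosen by name for this function. Of these, 38 were measured, out of 22180 genes that the array measured with a probe set of their own. A probe set is the group of short probes that reports 1 value for a gene. Ccnb1, a B-type cyclin, had no probe set assigned to it alone. The probe set of Ncapg, a condensin subunit, is shared with Lcorl, so neither gene is counted. Each of the 38 genes had 1 probe set, and each lay above the median of all probe sets on all 16 arrays.

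The mice were female, of the strain labelled C56BL/6, and chimeric, with bone marrow from wild-type (WT) or Il4i1 knockout (KO) donors. Il4i1 encodes a secreted enzyme that oxidises aromatic amino acids. All mice, WT chimeras included, had also received leukaemia cells from Eµ-TCL1 mice, in which the TCL1 oncogene is driven in B cells and a disease like chronic lymphocytic leukaemia (CLL) arises. At 5 weeks after that transplantation, CD8 T cells of the spleen were sorted as effector cells (CD44 positive, CD127 negative) or memory cells (CD44 high, CD127 high). Each subset was taken from KO and from WT chimeras, which gives 4 groups of 4 arrays. The sources used here do not give the age of the mice, the Il4i1 genotype of the recipients or that of the leukaemia cells, nor do they say whether the 4 samples of a group came from separate animals. The p-values therefore measure the spread between these samples, which may be technical.

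At the start of mitosis the kinase Cdk1, bound to its cyclins, drives chromosome condensation and spindle assembly. Motor proteins and microtubule-binding proteins shape the spindle, kinetochores tie chromosomes to it, and the spindle assembly checkpoint holds the cell until every chromosome is attached. A ubiquitin ligase, the anaphase-promoting complex (APC/C), then releases the chromosomes, and the central spindle guides cytokinesis. Most of these genes are transcribed late in the cell cycle and shut in resting cells, so that CD8 T cells carry their transcripts mainly while they divide. In bulk RNA of sorted cells, fewer dividing cells and less of a transcript in each dividing cell cannot be told apart.

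Values are deposited expression levels on a log2 scale, so a difference of 1 is a doubling. Levels are compared within a gene only, since probe sets differ in brightness. Differences carry the standard error (SE) of 1 limma fit to all 16 arrays, and a difference counts as passed where its p, two-sided and adjusted by Benjamini-Hochberg over all 22180 genes, is under 0.05. The SE pools the spread of all 4 groups. It is therefore smaller than groups with a wide spread would give alone, and larger than groups with a narrow spread would give. Values of single arrays are listed in the order of replicate 1 to 4, and these numbers imply no order in time or size. Array medians lay between 4.1169 and 4.2214. Effector KO 4 stood apart, with correlations over all genes of 0.965 to 0.974 to the other arrays against 0.971 to 0.994 for all other pairs. The mean of 8 CD8 T cell markers, Cd8a among them, lay between 10.77 and 11.06 on every array. The probe set that lists Il4i1 also lists Nup62 and Il4i1b, so it does not check the knockout: its mean was 5.90 in effector KO, 5.95 in effector WT, 5.67 in memory KO and 5.99 in memory WT.

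The 38 genes stood at one level on the 4 effector WT arrays and spread widely among the 4 memory KO arrays. Their mean on each array was 7.93, 7.82, 7.83 and 7.82 in effector WT and 7.66, 7.79, 7.72 and 7.45 in memory WT. In memory KO it was 6.30, 7.16, 7.71 and 6.21. Arrays 1 and 4 of memory KO were thus the lowest of the series, array 2 lay between, and array 3 lay within the memory WT range. In effector KO the mean was 7.93, 7.74, 8.10 and 7.25, with array 4 below every WT array of either subset.

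**Figure D1:**
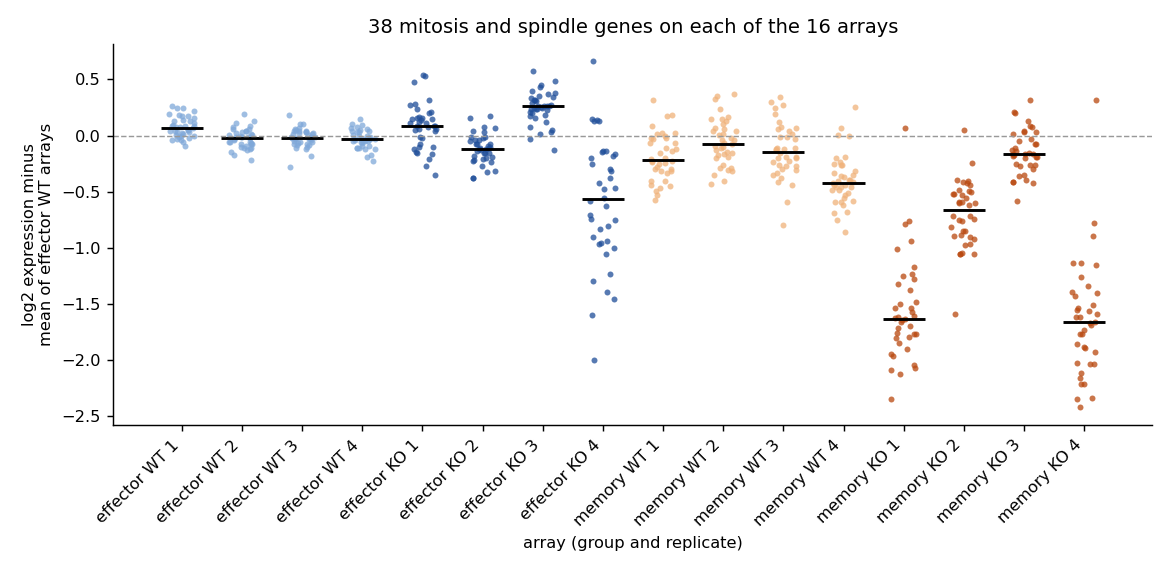
Each point is 1 of the 38 genes on 1 array, drawn as its log2 expression minus the mean of the 4 effector WT arrays for that gene; the bars are the medians of the genes and the groups are coloured. The medians of memory KO 1 and 4 lie at -1.63 and -1.67, that of memory KO 2 at -0.67 and that of memory KO 3 at -0.16, while that of effector KO 4 is -0.57.

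The low arrays were low gene by gene. Memory KO 1 and memory KO 4 each lay below every memory WT array in 37 of the 38 genes, memory KO 2 in 34 and memory KO 3 in 2. Memory KO 3 lay above every memory WT array in 8 genes. Shares of all genes are not given here for these counts of single arrays, so they describe the list alone. Among all 12 arrays outside memory KO, none was as low as memory KO 1 for 37 genes and memory KO 4 for 36. The spread between arrays, as the median standard deviation (SD) of the 38 genes, was 0.76 in memory KO, 0.38 in effector KO, 0.18 in memory WT and 0.09 in effector WT. Over all genes these medians were 0.17, 0.21, 0.16 and 0.13. Memory KO held the largest SD of the 4 groups for 34 of the 38 genes.

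Within groups the genes moved up and down together. With the group means removed, the correlation of a gene with the mean of the other 37, over the 16 arrays, had a median of 0.92, and 34 of the 38 genes exceeded 0.8. Of all 22180 genes, 278 exceeded 0.8 with the mean of the 38, and their median was 0.02. Prc1, which bundles the microtubules of the central spindle, was at 0.989 and Cdc20, the activator of the APC/C, at 0.988. The exceptions were Racgap1, a part of the central spindle complex, at 0.002, and to a lesser degree the kinetochore gene Cenpf at 0.625, the checkpoint kinase gene Bub1 at 0.736 and the kinetochore gene Ndc80 at 0.737. These correlations are descriptions: the 16 points share hybridisation and normalization, and the spread of memory KO weighs most in them.

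Promoters of mitotic genes are known for a pair of elements, the cell cycle homology region (CHR), where the DREAM repressor complex and its activating counterpart bind, and CCAAT boxes, where NF-Y binds. In the RefSeq promoter table of build GRCm38.p6, which spans 250 bases before to 50 bases after a transcription start, 33 of the 38 genes had 35 windows. Tpx2, Aurkb, Spc24, Kif20a and Ccna2 were not matched. CHR letters (TTTGAA or TTCGAA, either strand) stood in 29 of the 35 windows (82.9%), against 19.2% of all 32851 promoters. CCAAT (either strand) stood in 25 windows (71.4%), against 37.4%, and 24 windows held both (68.6%), against 7.52%. The E2F letters TTTCGCGC, TTTGGCGC or TTTCCCGC, which can overlap one another across strands, stood in 2 windows (5.71%), those of Cdk1 and Kif15, against 1.84% of all promoters. A CHR and a CCAAT box can share a base at their ends. A match of letters describes the sequence and is no proof of binding.

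The next 4 stretches are shown because their genes move together within groups and carry both elements ahead of the start, as did 10 of the genes, and because of those 10 they had the smallest p for effector against memory. Each is the 250 bases before the start, 5′ to 3′ on the strand of the gene, with the CHR and CCAAT letters of either strand in capitals. Mki67 is from chr7:135716380-135716629 (minus strand), with the CHR letters beginning 116 and 98 bases before the start and CCAAT letters 188, 166 and 141 bases before it. Kif11 is from chr19:37376132-37376381 (plus strand), with a CHR at 19 and a CCAAT box at 45. Ccnb2 is from chr9:70421555-70421804 (minus strand), with a CHR at 167 and CCAAT boxes at 87, 54 and 21. Prc1 is from chr7:80294226-80294475 (plus strand), with a CHR at 30 and a CCAAT box at 62. In Kif11 and Prc1 the marked CHR letters lie between the CCAAT box and the start, and in Mki67 both do so. In Ccnb2 the marked CHR letters lie farther from the start than all 3 boxes. Letters in the 50 bases after the start are not shown, so this order holds for the printed bases only.
Mki67: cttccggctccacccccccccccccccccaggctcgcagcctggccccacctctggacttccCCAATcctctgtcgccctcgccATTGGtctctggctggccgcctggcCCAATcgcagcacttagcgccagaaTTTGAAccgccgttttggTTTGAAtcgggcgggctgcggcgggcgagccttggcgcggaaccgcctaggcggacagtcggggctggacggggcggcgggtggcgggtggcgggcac
Kif11: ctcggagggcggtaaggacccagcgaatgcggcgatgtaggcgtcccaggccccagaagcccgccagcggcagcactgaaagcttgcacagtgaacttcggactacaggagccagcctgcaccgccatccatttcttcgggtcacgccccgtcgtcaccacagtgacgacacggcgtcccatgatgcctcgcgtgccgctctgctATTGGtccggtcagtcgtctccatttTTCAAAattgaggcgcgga
Ccnb2: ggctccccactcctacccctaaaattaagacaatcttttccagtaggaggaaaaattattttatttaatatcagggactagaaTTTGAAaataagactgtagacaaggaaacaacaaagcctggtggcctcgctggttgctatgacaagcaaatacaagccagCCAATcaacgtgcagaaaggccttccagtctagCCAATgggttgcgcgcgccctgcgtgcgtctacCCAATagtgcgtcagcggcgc
Prc1: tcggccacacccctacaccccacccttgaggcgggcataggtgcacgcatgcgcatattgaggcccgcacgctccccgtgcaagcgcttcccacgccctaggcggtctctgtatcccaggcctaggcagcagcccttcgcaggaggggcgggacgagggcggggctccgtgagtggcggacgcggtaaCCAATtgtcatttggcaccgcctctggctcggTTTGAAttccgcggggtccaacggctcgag

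Cdk1, the kinase that starts mitosis, was low on the same memory KO arrays as the group. Its levels were 7.23, 8.43, 9.12 and 7.06 in memory KO and 9.20, 9.07, 9.19 and 8.66 in memory WT. In effector cells they were 9.32, 9.06, 9.34 and 8.88 in KO and 9.26, 9.21, 9.17 and 9.07 in WT. Arrays 1, 2 and 4 of memory KO lay below all memory WT arrays and array 3 lay among them, so the groups overlapped. The difference between memory KO and memory WT was -1.07 ± 0.32 (2.10-fold lower, adjusted p = 0.224) and did not pass. Effector KO against memory KO passed at 1.19 ± 0.32 (2.28-fold, adjusted p = 0.0348). Ccnb2, a B-type cyclin that binds Cdk1, passed that comparison too at 1.17 ± 0.32, with memory KO at 7.48, 8.95, 9.38 and 7.52 and memory WT at 9.30, 9.43, 9.44 and 9.07. Ccna2, the cyclin of S phase and mitotic entry, was at 0.88 ± 0.30 and did not pass (adjusted p = 0.0926).

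Of the mitotic kinases, Plk1 acts at centrosomes and kinetochores, Aurka at spindle poles, and Aurkb in the chromosomal passenger complex together with survivin (Birc5) and borealin (Cdca8). Plk1 was at 7.83, 8.93, 9.38 and 7.24 in memory KO and at 9.48, 9.52, 9.52 and 9.19 in memory WT. In effector KO it was at 9.77, 9.30, 9.72 and 9.58, and in effector WT at 9.54, 9.38, 9.40 and 9.51. Memory KO 3 lay within the range of memory WT and the other 3 memory KO arrays below it. Effector KO exceeded memory KO by 1.25 ± 0.32 (2.37-fold, adjusted p = 0.0242), while in WT the same difference was 0.03 ± 0.32.

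Aurka was 1 of 2 genes whose memory groups did not overlap (5.26% of the list, against 3.37% of all genes lower without overlap). It was at 5.79, 6.92, 7.19 and 6.01 in memory KO and at 7.34, 7.26, 7.41 and 7.23 in memory WT. In effector WT it was at 7.19, 7.04, 7.19 and 7.21, below all memory WT arrays, and in effector KO at 7.63, 7.31, 7.61 and 6.25. Its memory difference of -0.83 ± 0.30 nevertheless had an adjusted p of 0.299, and averaged over genotypes the effector-minus-memory difference was 0.29 ± 0.21 (adjusted p = 0.473). Aurkb was at 7.41, 8.66, 8.88 and 7.04 in memory KO and at 9.05, 8.66, 9.33 and 8.67 in memory WT. Its effector KO values of 8.99, 8.94, 9.44 and 8.23 spread on both sides of effector WT (9.14, 9.05, 9.03 and 9.04). No comparison of Aurkb passed.

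Birc5 and Cdca8, partners of Aurkb in the passenger complex, passed for effector against memory within KO. Birc5 differed by 1.22 ± 0.27 (2.33-fold, adjusted p = 0.0101), with memory KO at 6.39, 7.06, 7.97 and 6.43 and effector KO at 8.38, 8.06, 8.59 and 7.68. Cdca8 differed by 1.09 ± 0.27 (adjusted p = 0.0188). Cdca8 had the largest p of the list for KO against WT in effector cells, at 0.00 ± 0.27, with 7.73, 7.25, 7.79 and 7.34 in KO and 7.71, 7.56, 7.48 and 7.35 in WT. Its memory KO arrays stood at 6.04, 6.71, 7.36 and 5.64 and its memory WT arrays at 7.32, 7.50, 7.33 and 6.97.

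The 4 checkpoint genes are Bub1 and Bub1b, whose products sit at unattached kinetochores, Ttk, the kinase that recruits them, and Mad2l1, which holds back Cdc20. Their memory KO minus WT differences were -1.07, -1.09, -0.71 and -0.61, and none passed in any comparison. Ttk was at 5.38, 6.43, 6.88 and 5.25 in memory KO and at 6.67, 6.98, 6.34 and 6.78 in memory WT. In effector cells it was at 6.87, 7.17, 7.01 and 5.68 in KO and at 7.19, 7.20, 7.10 and 7.08 in WT, so that 1 array sets most of the -0.46 ± 0.34 between them (-0.13 for the other 3 arrays). Array 3 of memory KO lay above 3 of the 4 memory WT arrays. Ttk had the largest p of the list for the difference between subsets in the effect of KO (0.25 ± 0.47, adjusted p = 0.951).

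Ndc80 and Nuf2 form the microtubule-binding end of the outer kinetochore and Spc24 and Spc25 its inner end, while Cenpe is a kinetochore motor and Cenpf a large kinetochore protein. Of these 6 genes, 5 passed for effector KO against memory KO (83.3%), all but Nuf2, against 3.14% of all genes passing as higher. Ndc80 alone of the 5 passed in each of the 16 fits that left out 1 array. Ndc80 was at 7.93, 7.56, 7.97 and 8.05 in effector KO and at 7.36, 7.26, 7.46 and 7.49 in effector WT. It was at 6.63, 6.99, 7.71 and 6.61 in memory KO and at 7.56, 7.72, 7.73 and 7.39 in memory WT. Ndc80 was the 1 gene of the list whose effector KO arrays all lay above all effector WT arrays, effector KO 4 included, where most of the list was low. That is 2.63% of the list, no more than the 2.71% of all genes that were higher without overlap.

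The difference of Ndc80 between effector KO and WT, 0.49 ± 0.19 (1.40-fold), did not pass (adjusted p = 0.487). Its effector KO against memory KO difference passed at 0.89 ± 0.19 (1.86-fold, adjusted p = 0.00866). Cenpe was at 7.15, 7.25, 7.50 and 6.21 in effector KO, 7.53, 7.09, 7.29 and 7.15 in effector WT, 5.37, 6.21, 6.68 and 5.23 in memory KO, and 6.69, 7.0, 6.83 and 6.59 in memory WT. Both effector WT and memory WT arrays of Cenpe thus kept apart from each other, by a mean of 0.49 ± 0.29 (adjusted p = 0.507). Averaged over both genotypes Cenpe was 0.82 ± 0.21 higher in effector cells (1.77-fold, adjusted p = 0.0138). Nuf2, like Aurka, had all memory KO arrays (5.71, 6.96, 7.01 and 5.75) below all memory WT arrays (7.41, 7.42, 7.13 and 7.05), and its adjusted p was 0.311.

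Cdc20 activates the APC/C, Ube2c is the ubiquitin-conjugating enzyme that works with it, and Cdca3 is a trigger of mitotic entry that the ligase destroys. Ube2c was at 6.36, 6.94, 7.51 and 6.01 in memory KO and at 7.47, 7.69, 7.60 and 7.34 in memory WT. In effector cells it was at 7.60, 7.46, 7.74 and 7.22 in KO and at 7.57, 7.43, 7.64 and 7.51 in WT. Memory WT was thus level with effector WT (difference 0.02 ± 0.23), and memory KO was apart from both in 3 of 4 arrays. Cdca3 was at 5.63, 6.91, 7.29 and 5.99 in memory KO and 7.15, 7.08, 7.37 and 6.97 in memory WT. Its effector levels were 7.51, 7.38, 7.66 and 7.02 in KO and 7.44, 7.40, 7.38 and 7.37 in WT. Effector KO against memory KO passed for Ube2c (0.80 ± 0.23, adjusted p = 0.042) and Cdca3 (0.94 ± 0.26, adjusted p = 0.0387), while Cdc20, at 0.99 ± 0.30, had an adjusted p of 0.0558.

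Among spindle proteins, Hmmr (RHAMM) and Tpx2 organise microtubules at the poles, Nusap1 bundles them, Kif11 and Kif15 push the poles apart, Kif2c removes microtubule ends and Kif4 is a chromosome-bound motor. Hmmr had the smallest p of the list in memory KO against WT, in effector KO against memory KO and in effector against memory over both genotypes. It was at 4.46, 5.75, 6.39 and 4.95 in memory KO and at 6.40, 6.66, 6.68 and 6.36 in memory WT. In effector cells it was at 6.89, 6.63, 6.82 and 6.64 in KO and at 6.81, 6.83, 6.68 and 6.90 in WT. Memory KO 3 lay just inside the memory WT range, and all effector KO arrays lay above all memory KO arrays.

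The memory KO minus WT difference of Hmmr was -1.14 ± 0.28 (2.20-fold lower, adjusted p = 0.143), and the effector KO minus memory KO difference passed at 1.36 ± 0.28 (2.56-fold, adjusted p = 0.00631). Tpx2 passed the latter at 1.02 ± 0.26 (adjusted p = 0.0253). Kif2c was at 5.55, 5.89, 6.93 and 5.18 in memory KO and 6.40, 6.49, 6.39 and 6.27 in memory WT, so memory KO 3 exceeded every memory WT array. In effector cells Kif2c was at 6.95, 6.70, 6.77 and 5.99 in KO and at 7.02, 6.80, 6.80 and 6.58 in WT, and the WT subsets did not overlap. Kif4 was at 6.66, 6.18, 6.65 and 4.39 in effector KO, 6.50, 6.43, 6.43 and 6.20 in effector WT, 4.35, 5.50, 6.12 and 4.88 in memory KO, and 6.15, 6.03, 6.16 and 5.53 in memory WT. Of the 38 genes, Kif4 was the one in which effector KO 4 lay farthest below effector WT, and Kif4 passed no comparison.

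**Figure D2:**
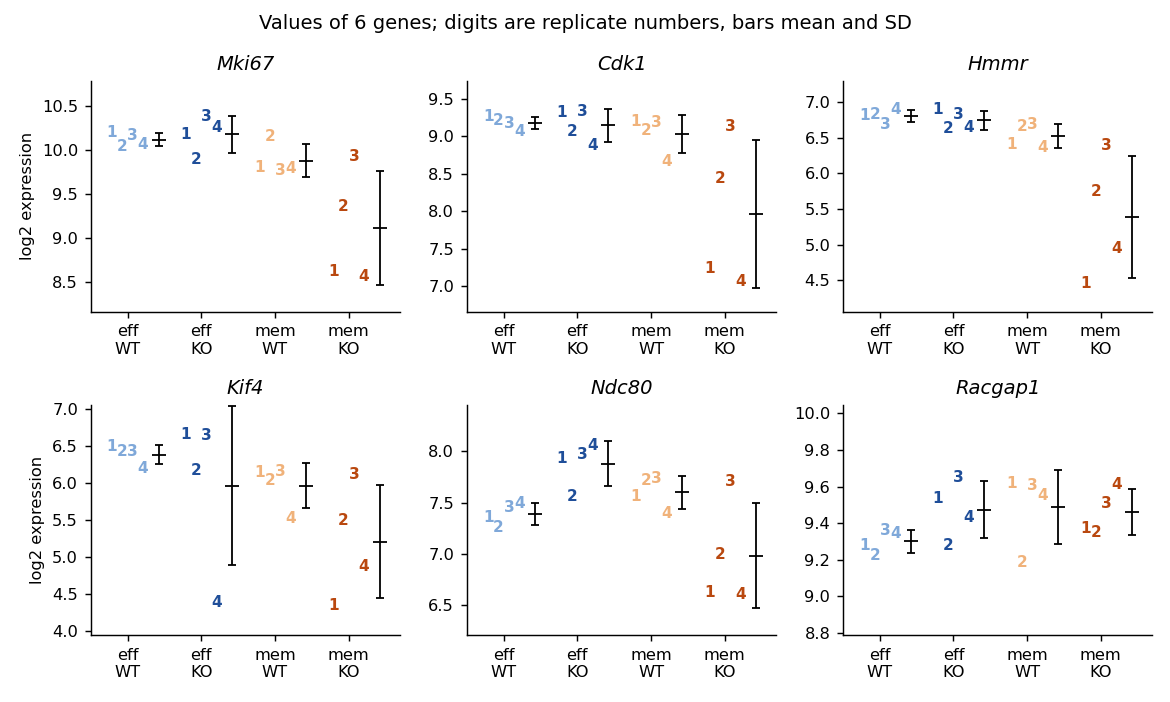
Log2 expression of 6 of the genes on each array, by group (eff, effector; mem, memory); digits are the replicate numbers and the bars give the mean and SD of the 4 arrays, on axes that do not start at 0. Memory KO 1 and 4 are lowest in Mki67, Cdk1, Hmmr and Ndc80, effector KO 4 is low in Kif4 and highest of its group in Ndc80, and Racgap1 shows no such spread.

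Prc1, Kif23, Kif20a, Anln, Ect2 and Racgap1 act in the central spindle and the contractile ring, and none of them passed in any comparison. Prc1 had the largest SD in memory KO among these, with 6.01, 7.12, 7.93 and 5.75 against 7.57, 8.01, 7.90 and 7.51 in memory WT. Racgap1, which forms the centralspindlin complex with the motor Kif23, was the gene that did not follow the list. It was at 9.37, 9.35, 9.51 and 9.61 in memory KO and at 9.61, 9.19, 9.60 and 9.55 in memory WT. In effector cells it was at 9.53, 9.28, 9.65 and 9.43 in KO and at 9.28, 9.22, 9.36 and 9.34 in WT. Memory KO 4, which lay below every memory WT array for its partner Kif23 (6.78 against 7.60 and above), was the highest of its group for Racgap1. Its memory KO minus WT difference was -0.03 ± 0.11 (adjusted p = 0.955).

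Mki67 encodes Ki-67, the chromosome-coating protein used as a marker of dividing cells, Top2a the topoisomerase that untangles chromosomes, Ncaph a condensin subunit and Cdca5 sororin, which protects cohesion. Mki67 was at 8.62, 9.35, 9.92 and 8.56 in memory KO and at 9.81, 10.16, 9.77 and 9.79 in memory WT. In effector cells it was at 10.18, 9.89, 10.39 and 10.26 in KO and at 10.20, 10.04, 10.17 and 10.07 in WT. Effector KO 4 was thus not low in Mki67. Effector KO exceeded memory KO by 1.06 ± 0.23 (2.09-fold, adjusted p = 0.00818), against 0.24 ± 0.23 between the WT groups, and memory KO minus memory WT was -0.76 ± 0.23 without passing (adjusted p = 0.216).

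Top2a was at 7.48, 8.14, 8.60 and 7.33 in memory KO and at 8.62, 8.80, 8.63 and 8.36 in memory WT. Its effector levels were 8.61, 8.67, 8.93 and 8.20 in KO and 8.83, 8.75, 8.75 and 8.71 in WT, and it passed no comparison. Ncaph was at 6.55, 7.60, 8.0 and 5.93 in memory KO, 8.05, 8.51, 8.16 and 7.86 in memory WT, 8.18, 8.27, 8.38 and 7.87 in effector KO, and 8.39, 8.54, 8.24 and 8.23 in effector WT. Only its array 3 of memory KO reached the memory WT range, and effector KO exceeded memory KO by 1.16 ± 0.32 (adjusted p = 0.0352). Cdca5 was at 5.36, 5.72, 6.01 and 5.01 in memory KO, 6.13, 6.07, 6.19 and 5.91 in memory WT, 6.67, 6.19, 6.38 and 6.01 in effector KO, and 6.09, 6.09, 6.11 and 6.29 in effector WT. The effector KO and memory KO arrays of Cdca5 did not overlap, if by under 0.01 (0.79 ± 0.18, 1.73-fold, adjusted p = 0.0116).

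The comparison of memory KO with memory WT asks what Il4i1 knockout in the transplanted marrow does to memory CD8 T cells. All 38 genes had a lower mean in memory KO, with a median difference of -0.84 (1.79-fold lower) and a range from -1.14 (Hmmr) to -0.03 (Racgap1). None passed limma's test (0 of 38, against 0.0766% of all genes passing lower), and 33 had an unadjusted p under 0.05, as did 11.3% of all genes in either direction. The smallest adjusted p-values were 0.143 for Hmmr, 0.195 for Ube2c (-0.82 ± 0.23) and 0.198 for Ncaph (-1.13 ± 0.32). Medians by role ran from -0.98 for the cyclins and Cdk1 and -0.92 for the spindle proteins to -0.70 for the central spindle genes. The arrays of the groups did not overlap in 2 genes, Aurka and Nuf2, or 5.26% of the list, against 3.37% of all genes that were lower without overlap.

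The call in this comparison turned on memory KO 3, the highest array of its group in 37 of the 38 genes. Leaving it out was bound to widen the difference in those genes, so the fit without it is a description and no separate support. Without memory KO 3, 23 of the 38 genes passed as lower, against 0.96% of all genes, and the median was -1.13 (2.19-fold lower). Hmmr then stood at -1.47 ± 0.21 (adjusted p = 0.00345), Spc24 at -1.27 ± 0.19 (adjusted p = 0.00513) and Birc5 at -1.24 ± 0.19 (adjusted p = 0.00587), with 3 arrays against 4. Without memory KO 1 the median was -0.65 and without memory KO 4 it was -0.63, and 0 genes passed in either fit.

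Between effector KO and effector WT the median difference of the genes was -0.08, with 10 genes higher and 28 lower in KO and a range from -0.46 (Ttk) to 0.49 (Ndc80). None passed limma's test (0 of 38, against 0.0541% of all genes in either direction), and 1, Ndc80, had an unadjusted p under 0.05, as did 9.32% of all genes. Ndc80 was also the 1 gene higher in KO without overlap, or 2.63% of the list, about the share of all genes (2.71%). Next by p came Racgap1 (0.17 ± 0.11, adjusted p = 0.642) and Ttk, and last Cdca3 (-0.01 ± 0.26) and Cdca8.

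The direction of the effector median rested on effector KO 4. That array was the lowest of its group in 29 of the 38 genes and below every effector WT array in 31, and it lay over 1 below the effector WT mean in 8 (Kif4, Bub1b, Ttk, Kif15, Nuf2, Anln, Cenpe and Kif11). In 5 genes it lay above that mean: Ndc80, by 0.66, and Plk1, Racgap1, Mki67 and Spc25. Without it the median was 0.05, 29 genes were higher in KO and 0 passed. Effector KO 3 lay above every effector WT array in 31 genes. For these counts of single arrays too, shares of all genes are not given here.

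**Figure D3:**
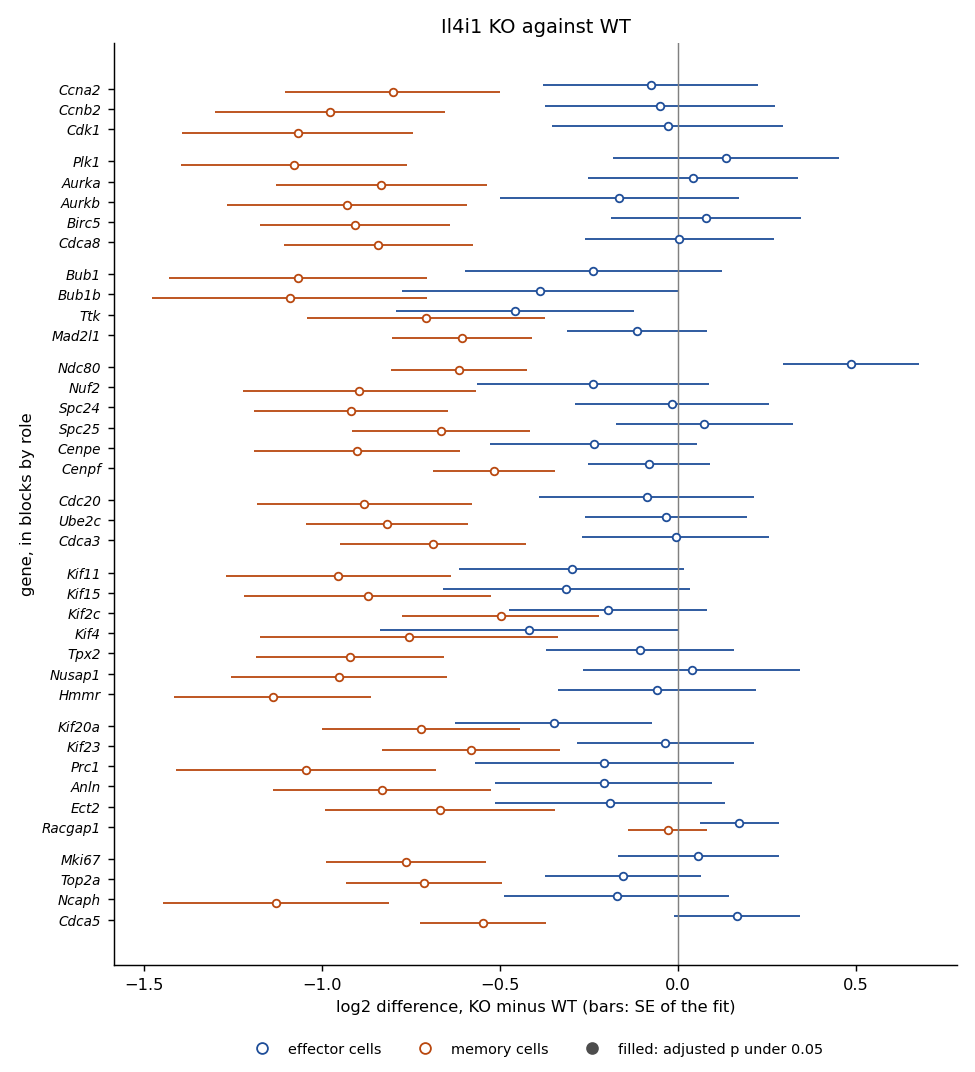
Log2 difference of KO minus WT for each of the 38 genes in effector and in memory cells, with the SE of the fit as bars, in blocks by role; a filled point would mark an adjusted p under 0.05, and there is none. In memory cells all points lie left of 0, down to -1.14 for Hmmr, while in effector cells they lie around 0, between -0.46 and 0.49.

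Whether KO acted differently in the subsets was tested as an interaction, the KO minus WT difference in effector cells minus that in memory cells. It was above 0 in all 38 genes, with a median of 0.73 and a range from 0.20 (Racgap1) to 1.21 (Plk1). None passed (0 of 38, with 0.0% of all genes passing), and 13 had an unadjusted p under 0.05, as did 1296 of all 22180 genes (5.84%). Ndc80 had the smallest adjusted p, 0.786 (1.10 ± 0.27), followed by Cdca5 (0.71 ± 0.25) and Hmmr (1.08 ± 0.39), both at 0.841. The weakest were Ttk and Kif4 (0.34 ± 0.59, adjusted p = 0.948). Without memory KO 3, the least shifted array of its group, Ndc80 passed (1.34, adjusted p = 0.0412), against 0.0225% of all genes passing as higher. Leaving out that array was bound to widen this difference, so that fit is a description and no separate support. A difference between the subsets in the response to KO was thus not shown at this number of arrays, and the 38 signs are not independent of each other.

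In WT chimeras the median difference, effector minus memory, was 0.21, with 34 genes higher in effector cells and 4 lower (Racgap1, Ndc80, Aurka and Nusap1). None passed as higher (0 of 38, against 0.92% of all genes) and 0 had an unadjusted p under 0.05 in limma's fit of all 4 groups, against 14.1% of all genes in either direction. The smallest p-values belonged to Racgap1 (-0.19 ± 0.11, adjusted p = 0.499), Cenpe and Kif2c (0.41 ± 0.28, adjusted p = 0.583), and the largest to Ube2c and Plk1.

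The spread of the WT groups alone is small, and their arrays separated more often than the shared fit calls. In 12 of the 38 genes, or 31.6%, every effector WT array lay above every memory WT array, against 6.41% of all genes: Cenpe, Kif2c, Ttk, Kif11, Kif20a, Kif23, Hmmr, Kif4, Prc1, Birc5, Ccnb2 and Cdc20. A fit of the WT groups alone called 4 of the genes as higher in effector cells, namely Kif11, Kif20a, Cenpe and Kif2c, with 15 at an unadjusted p under 0.05. That fit called 5.95% of all genes in either direction and had 19.2% at an unadjusted p under 0.05. Memory WT 4 was the lowest of its group in 31 genes, and without it the median was 0.12.

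Within KO chimeras the genes were higher in effector than in memory cells, with a median difference of 0.91 and a range from 0.01 (Racgap1) to 1.36 (Hmmr). Of the 38 genes, 17 passed as higher (44.7%), against 3.14% of all genes, and 0 as lower, while 35 had an unadjusted p under 0.05, as did 20.5% of all genes in either direction. By role, 5 of 6 kinetochore genes, 3 of 4 chromosome structure genes, 3 of 5 kinases and passenger genes, 2 of 3 of the cyclins and Cdk1, 2 of 3 APC/C genes and 2 of 7 spindle genes passed. None of the 4 checkpoint genes and none of the 6 central spindle genes did. The smallest p-values were those of Hmmr, Mki67 and Ndc80 and the largest those of Racgap1 and Kif4 (0.76 ± 0.42, adjusted p = 0.339). The arrays did not overlap in 3 genes (Hmmr, Cdca5 and Cenpf), or 7.89%, against 4.06% of all genes.

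This count moved with single arrays. It was 5 without effector KO 3 (against 2.11% of all genes), memory KO 1 (2.86%) or memory KO 4 (1.61%). It was 6 without effector KO 1 (2.29%) and 10 without effector KO 2 (2.44%), but 31 without effector KO 4 (4.47%) and 32 without memory KO 3 (3.26%). A fit of the KO groups alone called 0 of the genes, with 27 at an unadjusted p under 0.05 and a smallest adjusted p of 0.0783. That fit called 2.71% of all genes and had 15.6% at an unadjusted p under 0.05. The calls within KO were thus made only with the WT groups in the fit, whose arrays spread less. The median SD of the listed genes was 0.76 in memory KO and 0.38 in effector KO, against 0.18 in memory WT and 0.09 in effector WT. Whether this spread or the smaller number of arrays removed the calls was not tested. Birc5, Ndc80, Hmmr, Mki67 and Cdca5 passed in each of the 16 fits that left out 1 array. The other 12 lost the call in at least 3 of those fits, and Spc24 and Ube2c kept it in 4.

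**Figure D4:**
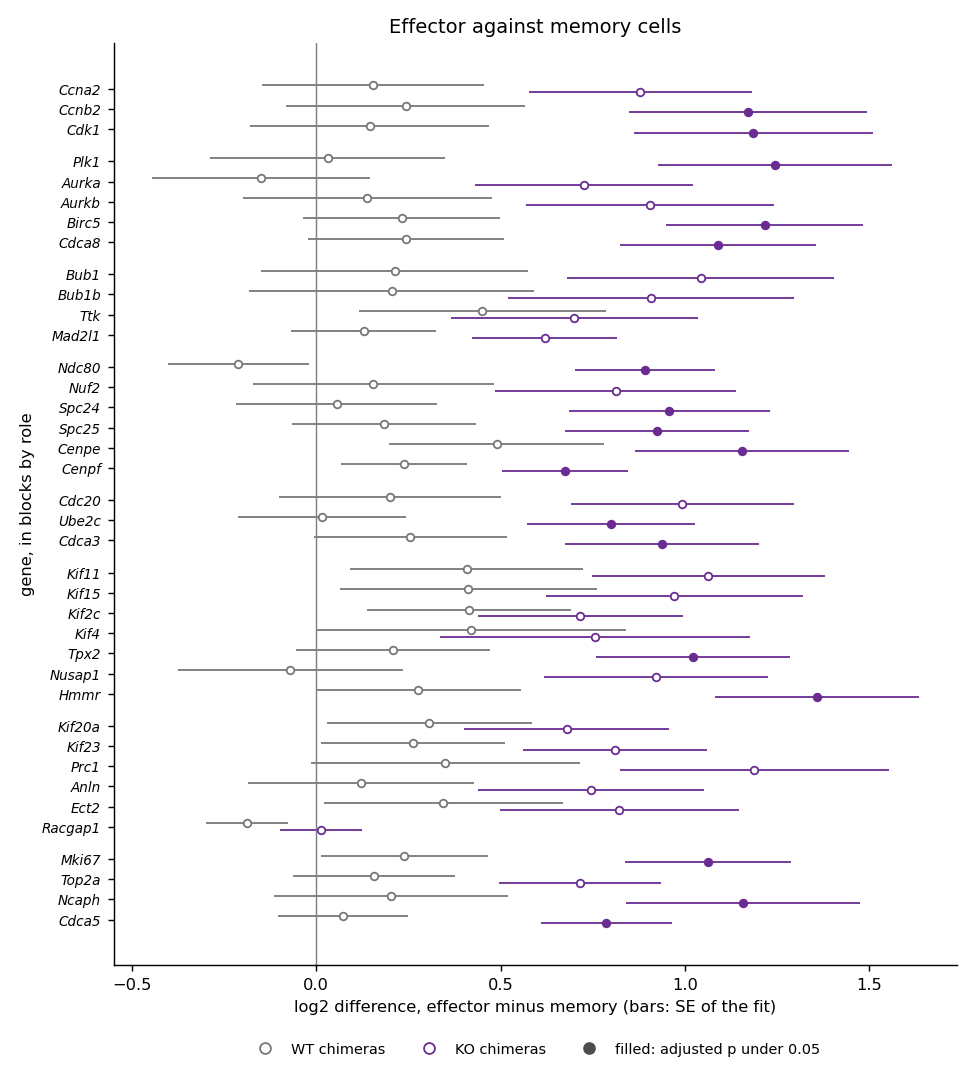
Log2 difference of effector minus memory for each of the 38 genes within WT and within KO chimeras, with the SE of the fit as bars, in blocks by role; filled points have an adjusted p under 0.05. The 17 filled points all belong to KO chimeras, with Hmmr at 1.36 the farthest right, and no WT point is filled.

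Averaged over both genotypes, 37 of the 38 genes were higher in effector cells, all but Racgap1 (-0.09 ± 0.08, adjusted p = 0.577), with a median of 0.57. Of them 10 passed (26.3%), against 5.05% of all genes that passed as higher, and 31 had an unadjusted p under 0.05, as did 23.2% of all genes in either direction. The 10 were Hmmr (0.82 ± 0.20, adjusted p = 0.0106), Mki67 (0.65 ± 0.16, adjusted p = 0.0121), Cenpe, Birc5, Cenpf, Cdca8, Cdca5, Tpx2, Kif11 and Cdca3. This average shares its arrays with the comparisons within WT and within KO, and the interaction above is the test between those. The count was 25 without effector KO 4 (against 6.64% of all genes) and 31 without memory KO 3 (5.1%). It was 5 without effector KO 1, effector KO 3, effector WT 1, memory KO 1 or memory WT 4, and 6 without effector WT 3, effector WT 4, memory KO 4 or memory WT 1. In the fits with 5 or 6, between 3.94% and 5.02% of all genes passed as higher. Hmmr, Mki67, Cenpe, Birc5 and Cenpf passed in all 16 fits that left out 1 array.

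Other genes of mitosis, from a list of 72 of which 66 were measured, ran the same way. All 66 had a lower mean in memory KO than in memory WT, with a median of -0.60 and none passing limma's test. Of the 66, 43 had an unadjusted p under 0.05, as did 11.3% of all genes in either direction. In effector KO against memory KO, 22 passed as higher (33.3%), against 3.14% of all genes. They include Cep55, which acts at the midbody in abscission, at 1.69 ± 0.31 (adjusted p = 0.003), the centromere gene Cenpn at 1.30 ± 0.26 (adjusted p = 0.00487) and Cenpa, the centromeric histone, at 1.10 ± 0.22 (adjusted p = 0.00617). In replication and S phase, 39 of 40 genes were lower in memory KO than in memory WT, with a median of -0.42. None passed limma's test (24 with an unadjusted p under 0.05, against 11.3% of all genes). The smallest adjusted p among them was 0.052, for Pold1, a DNA polymerase subunit, at -0.82 ± 0.15. For effector KO against memory KO, 11 of the 40 passed as higher (27.5%), against 3.14% of all genes, among them the replication kinase gene Cdc7 at 0.71 ± 0.12 (adjusted p = 0.00129).

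Regulators of the programme and its brakes were mixed. Of 17 transcription regulators, 6 passed as higher in effector KO than in memory KO (35.3%), against 3.14% of all genes. Among them were the E2F family genes E2f2 at 0.96 ± 0.18, E2f7 at 0.98 ± 0.20 and E2f8 at 1.32 ± 0.33. None passed for memory KO against WT, where the median was -0.22 and Mybl2, the activating partner of the DREAM core, was at -0.78 ± 0.23 (adjusted p = 0.216). Of 22 cell cycle inhibitors and quiescence genes, 3 passed as lower in effector than in memory WT cells, against 2.3% of all genes, including Tob1, an antiproliferative gene, at -0.83 ± 0.13 (adjusted p = 0.00128) and Klf2, a quiescence factor, at -1.38 ± 0.24 (adjusted p = 0.00367). In KO chimeras 3 passed as lower, against 4.3% of all genes, with Tob1 among them (-0.60 ± 0.13). Passing as higher were 2, against 3.14% of all genes. These were Cdkn3 (1.26 ± 0.28), a phosphatase of Cdk enzymes that is itself transcribed in dividing cells, and the Cdk inhibitor gene Cdkn2c (0.68 ± 0.16). None of the 22 passed for memory KO against WT (8 with an unadjusted p under 0.05, against 11.3% of all genes), where Cdkn3 was at -1.13 ± 0.28 (adjusted p = 0.149).

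**Figure D5:**
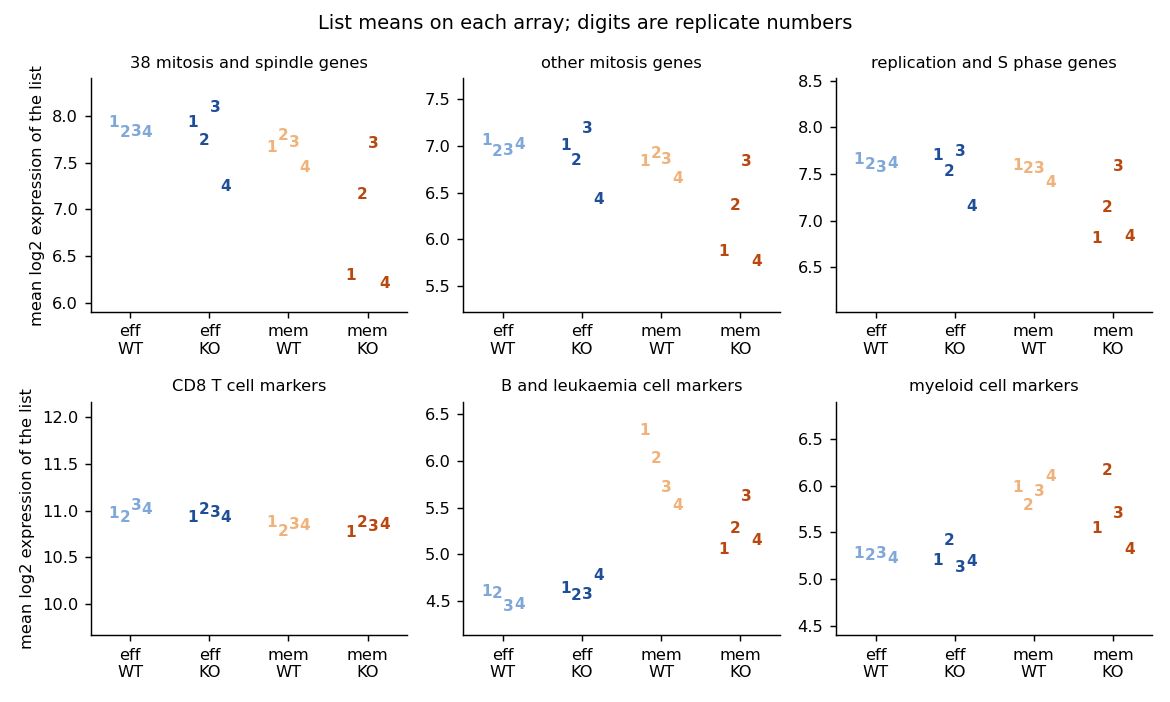
Mean log2 expression of 6 gene lists on each array, by group (eff, effector; mem, memory), with digits for the replicate numbers; each panel spans the same log2 range from its own start. The 38 genes and the other mitosis genes are lowest on memory KO 1 and 4. The CD8 T cell markers lie between 10.77 and 11.06 on all arrays, with every effector array above every memory array. The B and leukaemia cell markers have their highest group mean in memory WT, where array 4 lies below memory KO 3.

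Markers of other cells in the spleen also differed between these groups. The mean of 17 B and leukaemia cell markers was 5.05, 5.27, 5.62 and 5.14 in memory KO, 6.32, 6.02, 5.72 and 5.52 in memory WT, and between 4.44 and 4.78 on the effector arrays. Of the 17, 16 were lower in memory KO than in memory WT, with a median of -0.63. Cd22 passed (-1.04 ± 0.16, adjusted p = 0.0145), against 0.0766% of all genes passing lower. In effector against memory WT cells 14 of the 17 passed as lower, against 2.3% of all genes. Of the 17, 11 had a mean above the array medians, and Ighm, the immunoglobulin heavy chain gene, was at 11.09 in memory WT and 11.33 in memory KO. Every effector array had a lower marker mean than every memory array, while the mean of the mitosis genes on effector KO 4 (7.25) lay below that of every memory WT array. Memory KO 3, with mitosis genes at the memory WT level, had the highest marker mean of its group. The part of leukaemia cell RNA in the memory differences was not tested. The mean of 15 myeloid markers was 5.54, 6.17, 5.71 and 5.32 in memory KO, 5.78 to 6.10 in memory WT and 5.12 to 5.41 in effector cells. None of these markers passed for memory KO against WT (4 with an unadjusted p under 0.05, against 11.3% of all genes). Their part was not tested either. In memory KO against WT none of 8 plasma cell, 5 erythroid, 6 NK cell and 7 CD4 and regulatory T cell markers passed in limma's fit. Of these, 3, 0, 3 and 4 had an unadjusted p under 0.05, against 11.3% of all genes, and the median differences were -0.09, 0.03, -0.28 and -0.33. For effector KO against memory KO, 5 of 17 B and leukaemia cell markers passed as lower, against 4.3% of all genes. So did 4 of 15 myeloid and 2 of 6 NK cell markers. Passing as higher were 1 NK cell and 1 plasma cell marker, against 3.14% of all genes. The part of such cells in the differences between effector and memory arrays was not tested.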

How the data were processed

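Affymetrix arrays, 16 in all and of 1 colour, measured RNA of CD8 T cells sorted from spleen. Per the labels' protocols, 1 ng of total RNA was amplified and biotin-labelled with the WT Pico kit. The values deposited by the authors were read as normalized log2 expression. The labels state neither the normalization nor the log base. The values run from 0.7365 to 14.0453, and the base was inferred from that.

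Of 41345 probe sets, 25335 were in the probe table, 23521 with 1 gene and 1814, with several, left out; for 1082 genes measured by more than 1 probe set, that of the highest mean over all arrays was kept. Each of the 38 genes matched RefSeq by Entrez identifier. A model with a mean for each of the 4 groups was fitted to the 16 arrays in limma 3.58.1 under R 4.3.3 (lmFit, contrasts.fit, eBayes; 12 residual and 4.23 prior degrees of freedom), with Benjamini-Hochberg adjustment over 22180 genes and no filter on dim probe sets. The number of arrays limits the precision. With 4 arrays against 4, an exact permutation test of a single gene could reach no p below 0.0286, so none is given. The fit was also run on simulated data with independent genes and 1 SD per gene for all 4 groups. Those data lack the unequal spread and the shared movement of the 38 genes, so they do not test the fit under these conditions.

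The genes and lists were chosen with earlier results of these data known, so no pattern already seen is independent support. Every member could be named; values on every array were given for Mki67, Top2a, Cdk1, Plk1, Aurkb and, per comparison, the 3 members with the smallest p and the 2 with the largest. Values of Ccnb2, Nuf2 and Prc1 on the memory arrays and of Birc5 on the KO arrays were added after they were seen. Of other lists, up to 3 genes with the smallest p per comparison could be named. Motifs were searched on both strands. The 25 alternatives left out each array in turn, weighted arrays, changed the normalization, the probe set rule, the filter, the prior or the groups fitted, or added the replicate number as a block. Plots were drawn with matplotlib 3.10.9.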

Additional observations from a re-analysis of the deposited data

Results flagged for a closer look

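In a group of 4 arrays, the gap between the highest or lowest array and the nearest other, divided by the whole range, was set against the 95% critical value of Dixon's test. Of 108 groups looked at, 8 exceeded it (7.41%), where chance gives about 1 in 20.

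In effector WT, array 1 lay above the others in the mean of the 38 genes (7.93 against 7.82 to 7.83; ratio 0.891), in the mean of the cyclins and Cdk1 (8.95 against 8.83 to 8.85; 0.838) and in that of the mitotic kinases and passenger genes (8.36 against 8.22 to 8.23; 0.928). These gaps are small beside the spread of the other groups, since the effector WT arrays lie close together. Within effector WT, Aurka was low on array 2 (7.04; ratio 0.855) and Cdca5 high on array 4 (6.29; 0.881).

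In memory WT, Mki67 was high on array 2 (10.16 against 9.77 to 9.81; ratio 0.915), Plk1 low on array 4 (9.19 against 9.48 to 9.52; 0.869) and Racgap1 low on array 2 (9.19 against 9.55 to 9.61; 0.857). The low arrays of memory KO exceed no critical value, since arrays 1 and 4 are low together.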

How the results depend on the processing

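The counts of passing genes and the medians moved under the 25 alternatives as given below, and neither was itself tested. Leaving out 1 array at a time gave 5 to 32 passing genes for effector against memory KO, with 1.61% to 4.47% of all genes passing as higher. Over both genotypes, leaving out 1 array gave 5 to 31 for effector against memory, with 3.94% to 6.64% of all genes. It gave 0 to 23 as lower in memory KO than in WT and 0 to 1 in the interaction. The high ends are without memory KO 3, which removes the least shifted array of its group. In that fit 0.96% of all genes passed as lower in memory KO and 0.0225% as higher in the interaction. Fitting only the groups compared gave 4 for effector against memory WT (5.95% of all genes in either direction) and 0 for effector against memory KO (2.71%). Array quality weights, which gave effector KO 4 a weight of 0.232, gave 30 for effector against memory KO and 29 over both genotypes. They moved the effector KO against WT median to 0.05, and the share of all genes passing with weights is not given here. The cause of these shifts was not tested.

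The labels number the replicates 1 to 4 in each group. Deviations from the group means correlated with a median of 0.076 over 24 same-numbered pairs, 9 of them over 0.1, and of -0.026 over 72 other pairs, 4 of them over 0.1. Between effector and memory arrays of one genotype, 6 of 8 same-numbered pairs were over 0.1 (0.018 to 0.239), against 1 of 24 others, and 14 of 16 arrays correlated best with their own number, a hint of pairing from the data and not from the design. The labels do not say what a number marks, and not every pair was over 0.1, so whether the numbers pair the samples is not settled and the block was kept as an alternative. With the replicate block 21 genes passed for effector against memory over both genotypes and 24 for effector against memory KO. The block moved no other count past 1.5 times, and the share of all genes passing with it is not given here. Medians kept their sign except in effector KO against WT (-0.21 to 0.05 without 1 array). Values of single genes were followed per comparison for Mki67, Top2a, Cdk1, Plk1, Aurkb and the genes with the smallest and largest p only. Of these values, 1364 stayed on their side of the threshold, 28 crossed it to pass and 14 lost the call. These counts do not describe the rest of the list. For effector against memory KO, Spc24 and Ube2c, outside that choice, passed in 4 of 16 fits that left out 1 array. Birc5 and Cdca5, also outside it, passed in all 16. No background level or detection call was used here, and with 4 arrays a group the spread between memory KO arrays sets what can pass.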

Other observations

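Probe sets shared by a mitosis gene and another gene were left out of the tests. The probe set listed for Ncapg, a condensin subunit, and Lcorl was at 5.89, 7.07, 7.73 and 6.03 in memory KO and at 7.57, 7.64, 7.62 and 7.27 in memory WT. On the 4 effector KO arrays its mean was 7.87 (SD 0.08), and on the 4 effector WT arrays 7.94 (SD 0.07). The probe set shared by Oip5, a centromere gene, and Nusap1 had a mean of 5.19 ± 0.29 (SD, n = 4) in memory KO and 5.92 ± 0.24 in memory WT. Its effector means were 5.80 ± 0.59 for KO and 5.78 ± 0.02 for WT. The 2 probe sets listed for Top2a and Taf1d had means of 4.39 and 5.30 in memory KO and of 4.29 and 5.32 in memory WT, and effector KO 4 was the highest of all arrays on both (5.58 and 6.80), while Top2a itself was the lowest of its group there (8.20).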
